A study of Homo sapiens with 12 samples.

Results

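The genes described are the 10 listed enzymes of the microsomal cycle that elongates fatty acids to very long chains, namely ELOVL1, ELOVL4, ELOVL5, ELOVL6, ELOVL7, HSD17B12, HACD1, HACD2, HACD3 and TECR, out of 17589 genes in the deposited table. They were taken by gene symbol, and all 10 were in the table and passed the filter on low counts, as did 13657 genes in all. RNA-seq had been done on YT cells, an NK-like lymphoid line that has no CD16a of its own per the study, after lentiviral vector infection and without stimulation, with 3 libraries in each of 4 groups. CTRL cells expressed eGFP alone. hnCD16 cells expressed a high-affinity, non-cleavable form of the Fc receptor CD16a. FR1 cells carried hnCD16 fused to the cytoplasmic domains of 2B4, DAP10 and CD3ζ, and FR2 cells carried hnCD16 fused to those of DAP10 and CD3ζ. Per the study's methods, the receptors were driven by the constitutive hEF1A promoter, and in all groups, CTRL included, eGFP-positive cells had been sorted and expanded after transduction. No source used here states that the 3 libraries of a group came from separate transductions or cultures, so the p-values below measure the spread between these libraries, which may be technical.

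Each library held 17714566 to 18729019 counts. The gene of the receptor, FCGR3A, had 0 counts in the CTRL libraries, 453 to 480 counts with hnCD16, 559 to 567 with FR1 and 1012 to 1132 with FR2. The 12 listed NK markers summed to 35.7 to 42.4 CPM (counts scaled to library size with TMM factors) over the 6 CTRL and hnCD16 libraries and to 1905 to 2084 CPM in the 6 FR1 and FR2 libraries. KLRF1 was at the floor of 3 counts or fewer in every group, and TYROBP was at the floor in FR1 and FR2. Of the 10 NK markers tested, 7 or 8 were higher and 1 was lower in each contrast between the pairs. The sum of the 11 measured T cell and thymocyte markers of 13 listed went the other way. It was 733 to 867 CPM in CTRL and hnCD16 against 129 to 170 CPM in FR1 and FR2. CD3D, CD4, CD8A, RAG2, CD1A and PTCRA were at the floor in FR1 and FR2. In each contrast between the pairs, 9 of the 10 tested T cell and thymocyte markers were lower and 1 was higher. The 5 measured B cell markers of 7 listed summed to 9.19 to 14.7 CPM in the first pair of groups and to 38.3 to 47.4 CPM in the second. Of the 3 tested B cell markers, 1 was higher and 2 were lower in each contrast between the pairs. The label of NK-like cells was thus met by few of these markers in the CTRL and hnCD16 libraries. Between the pairs, 38% to 39.5% of all tested genes were differentially expressed (DEGs, with an absolute log2 fold change of 1 or more and an adjusted p of 0.05 or less), against 0.527% for hnCD16 and CTRL and 1.93% for FR1 and FR2. The fusion receptor and any other difference between the 2 pairs of cell populations cannot be told apart in this design, and every contrast below of an FR group with CTRL or hnCD16 carries this limit. In bulk RNA, fewer cells of a type and less RNA per cell cannot be told apart either.

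Fatty acids made by fatty acid synthase or taken up from outside are lengthened on the endoplasmic reticulum by a repeated cycle of reactions, each round adding a unit drawn from malonyl-CoA. An ELOVL enzyme condenses the acyl-CoA with malonyl-CoA and sets the chain length and saturation that are accepted, HSD17B12 reduces the resulting 3-ketoacyl-CoA, a HACD enzyme removes water, and TECR reduces the remaining double bond. The products serve as acyl chains of ceramides, sphingolipids and ether lipids and as polyunsaturated chains of phospholipids, and lymphocytes carry very long chain sphingolipids in their plasma membrane. Ceramide synthases attach these chains to sphingoid bases, and peroxisomes shorten the surplus.

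In FR1 and FR2, the ketoreductase HSD17B12 and the elongase ELOVL4 were at 0 to 2 counts in all 6 libraries, against 1569 counts or more in all 6 CTRL and hnCD16 libraries. The elongase ELOVL6 and the dehydratase HACD1 were also lower, but remained above the floor. ELOVL1 was higher by less than the fold threshold, ELOVL5 and HACD2 were lower by less than that threshold, and HACD3, TECR and ELOVL7 stayed within it as well. The members were proposed with the contrasts of FR1 and FR2 against CTRL and hnCD16 already known, so the members' values in these contrasts are given as a description, with no p-value.

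The promoters of ELOVL4, ELOVL6 and HACD1, which met the fold threshold for a lower level in FR1 and FR2, are shown beside that of ELOVL1, whose level was higher there, as the 250 bases before the annotated start, 5′ to 3′. They are from RefSeq on GRCh38.p14, where 9 of the 10 members had an entry, and HSD17B12 was the member without one. The RefSeq starts can differ from the ends of the GENCODE spans given below. The windows of ELOVL6 and TECR lie inside those spans, and those of ELOVL1, ELOVL5, ELOVL7 and HACD3 overlap them in part. Capitals mark CCAAT or its reverse complement ATTGG, and GGGCGG or its reverse complement CCGCCC, and overlapping matches run together.
ELOVL4 (chr6:79947554-79947803, strand -): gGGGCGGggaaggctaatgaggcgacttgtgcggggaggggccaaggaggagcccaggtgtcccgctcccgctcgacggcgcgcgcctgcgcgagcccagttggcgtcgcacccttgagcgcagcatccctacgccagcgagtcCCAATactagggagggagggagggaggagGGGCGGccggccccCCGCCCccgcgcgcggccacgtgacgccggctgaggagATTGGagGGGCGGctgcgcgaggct
ELOVL6 (chr4:110198616-110198865, strand -): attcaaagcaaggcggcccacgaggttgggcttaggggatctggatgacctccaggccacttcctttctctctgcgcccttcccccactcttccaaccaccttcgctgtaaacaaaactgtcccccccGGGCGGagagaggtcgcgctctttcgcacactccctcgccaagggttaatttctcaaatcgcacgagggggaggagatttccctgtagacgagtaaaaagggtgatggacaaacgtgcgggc
HACD1 (chr10:17617375-17617624, strand -): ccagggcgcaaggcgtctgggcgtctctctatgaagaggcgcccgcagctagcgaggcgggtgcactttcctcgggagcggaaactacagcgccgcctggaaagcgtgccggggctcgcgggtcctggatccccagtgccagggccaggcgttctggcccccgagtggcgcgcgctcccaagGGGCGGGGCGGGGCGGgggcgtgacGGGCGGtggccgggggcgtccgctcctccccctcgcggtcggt
ELOVL1 (chr1:43368012-43368261, strand -): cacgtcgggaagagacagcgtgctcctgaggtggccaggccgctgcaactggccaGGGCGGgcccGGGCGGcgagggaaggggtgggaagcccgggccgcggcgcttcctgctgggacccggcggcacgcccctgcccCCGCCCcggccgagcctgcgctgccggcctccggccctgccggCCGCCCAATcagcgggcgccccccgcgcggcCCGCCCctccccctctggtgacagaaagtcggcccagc
On both strands, GGGCGG was found in 8 of the 9 member promoters, all but that of ELOVL5, against 42.3% of 27305 promoters of the same length. CCAAT was found in 5 of 9, those of ELOVL1, ELOVL4, ELOVL5, HACD3 and TECR, against 33% of all promoters. CACGTG was found in the promoters of ELOVL4 and ELOVL5 and in 6.49% of all, whereas TCACNCCAC, a form of the sterol response element, and TATAAA were in none of the 9 and in 0.875% and 11.1% of all promoters. The promoters held 15 (ELOVL6) to 35 (ELOVL7) CG dinucleotides, against a median of 11 over all promoters. None of these motifs was in all of, and only in, the ELOVL4, ELOVL6 and HACD1 promoters. ELOVL4 and ELOVL1 shared CCAAT and GGGCGG, and HACD1 and HACD2 both had GGGCGG without CCAAT. These matches describe the windows and are not evidence of binding.

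HSD17B12 (NCBI Gene 51144) lies on chromosome 11 at 43680680 to 43856617, plus strand, in GENCODE v44 on GRCh38, which is the source of all gene positions here. It encodes the 3-ketoacyl-CoA reductase, the second enzyme of the cycle, and was the only ketoreductase among the members. The counts were 2125, 2049 and 2000 in CTRL, 2649, 2578 and 2553 in hnCD16, 2, 0 and 0 in FR1, and 0 in each FR2 library. The 2 pairs of groups lay far apart without overlap, and within the first pair all 3 hnCD16 libraries lay above all CTRL libraries. Relative to hnCD16, the level in FR2 was at least 823-fold lower, taking 3 counts per library as the floor, and relative to CTRL at least 610-fold lower. In FR1, where a single library held the 2 counts, the ratio was 3637-fold against hnCD16 (95% counting interval 1007 to 30036) and 2697-fold against CTRL (746 to 22266). The mean level was 86.5 ± 0.471 TPM (SD, n = 3) in CTRL and 105 ± 1.04 TPM in hnCD16, a log2 difference of 0.43 ± 0.06 (SE) on the CPM scale. Intervals and floors cover counting error only.

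Such a difference was uncommon but was not found for HSD17B12 alone. Of 3614 genes with at least 1000 counts in each CTRL and hnCD16 library, 28 (0.775%) had 3 counts or fewer in each FR1 and FR2 library, and HSD17B12 and ELOVL4 were among them. The reverse held for 17 of 3741 genes (0.454%), none of which were members. At a minimum of 2000 counts there were 5 of 1657 genes (0.302%). HSD17B12, with exactly 2000 counts in CTRL replicate 3, was still one of them. At lower minima of 100 and 500 counts the shares were larger, at 274 of 9423 genes (2.91%) and 86 of 6060 (1.42%). The reverse then held for 135 of 9025 genes (1.5%) and 40 of 5979 (0.669%).

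The genes beside HSD17B12 did not all share its pattern. Toward lower coordinates, TTC17 lay 185.7 kb away and held 995 to 1178 counts in CTRL and hnCD16 and 658 to 785 in FR1 and FR2. API5, an apoptosis inhibitor, was next on that side and had 4500 to 7084 counts over all libraries, and LRRC4C had 0 to 6. Toward higher coordinates, ALKBH3, a DNA demethylase that starts 24.2 kb from HSD17B12, had 886 to 1180 counts in CTRL and hnCD16 and 0 or 1 in FR1 and FR2. C11orf96 had 17 to 35 counts in the first pair and 0 in the second. ACCSL was at 0 or 1 count throughout. ACCS and EXT2 were added after their values were seen, since they follow on that side. ACCS was at 0 to 2 counts, and EXT2, a heparan sulfate polymerase, had 1190 to 1418 counts in CTRL and hnCD16 and 534 to 638 in FR1 and FR2. The genes at the floor in FR1 and FR2 therefore lay side by side between TTC17 and EXT2, which are 600.7 kb apart, and both flanking genes were expressed in all 12 libraries. The genomic DNA of these cells was not analysed here.

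ELOVL4 (NCBI Gene 6785, chromosome 6, 79914814 to 79947553, minus strand) extends saturated and polyunsaturated chains to the longest lengths of the family. Its counts were 1703, 1701 and 1603 in CTRL, 1569, 1688 and 1587 in hnCD16, 1, 0 and 1 in FR1, and 0 in each FR2 library. Libraries of CTRL and hnCD16 overlapped each other, and none overlapped with FR1 or FR2. The level in FR2 was at least 512-fold lower than in hnCD16 and at least 495-fold lower than in CTRL. In FR1 the ratio was 2265-fold against hnCD16 (95% counting interval 627 to 18699) and 2187-fold against CTRL (605 to 18056).

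As for HSD17B12, the nearest genes on one side of ELOVL4 were expressed in every group. TTK, a mitotic kinase 56.3 kb away, had 1361 to 3159 counts over the 12 libraries. BCKDHB, 159.1 kb away, had 782 to 881 counts in CTRL and hnCD16 and 339 to 400 in FR1 and FR2, with log2 fold changes of −1.18 (FR1) and −1.03 (FR2) against hnCD16 (adjusted p = 9.55e-12 and 5.05e-11). TENT5A, farther out at 1543.9 kb, had 1374 to 1437 counts against 0 to 2. On the other side, SH3BGRL2 and LCA5 were at 0 counts in CTRL and hnCD16 and at 0 to 13 in FR1 and FR2. HMGN3, a nucleosome-binding protein 680.1 kb away, had 3854 to 4493 counts against 0 or 1. Genes at the floor in FR1 and FR2 thus lay among expressed ones.

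Among tested genes, those whose profile was nearest to HSD17B12 were SMIM24, CLIC4 and SCOC, at Euclidean distances of 0.377, 0.510 and 0.521 between centred log2(CPM + 1) values over the 12 libraries. Each had 1849 counts or more in every CTRL and hnCD16 library and 2 or fewer in FR1 and FR2. For ELOVL4 they were ZNF521, B4GALT6 and PLCH1, at distances of 0.292, 0.356 and 0.370, with 1468 counts or more in the first pair and 3 or fewer in the second. B4GALT6 is a lactosylceramide synthase.

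ELOVL6 (chromosome 4, 110045846 to 110199199, minus strand), which elongates palmitate and other saturated and monounsaturated chains of that length, was lower in FR1 and FR2 but still detected. The counts were 540, 571 and 595 in CTRL, 642, 681 and 743 in hnCD16, 6, 15 and 14 in FR1, and 10, 10 and 11 in FR2. All hnCD16 libraries were above all CTRL libraries, and the FR libraries lay far below both. Against CTRL the log2 fold change was −5.40 ± 0.14 (SE) for FR1 and −5.60 ± 0.15 for FR2, and −5.77 ± 0.14 and −5.97 ± 0.14 against hnCD16. FR1 and FR2 overlapped, with replicate 1 of FR1 the lowest of the 6.

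ELOVL1 (chromosome 1, 43363398 to 43368074, minus strand), the elongase of saturated and monounsaturated very long chains that feed ceramides, was the elongase with a higher level in FR1 and FR2. It had 742, 734 and 685 counts in CTRL, 682, 653 and 659 in hnCD16, 1160, 1094 and 1216 in FR1, and 1099, 1214 and 1044 in FR2. In CPM the pairs of groups did not overlap, whereas the groups of each pair did. In counts and in TPM, CTRL also lay above hnCD16. The log2 fold change of 0.88 ± 0.06 for FR1 and 0.80 ± 0.06 for FR2 against CTRL, and of 0.90 and 0.82 against hnCD16, stayed under the threshold of 1.

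ELOVL5 (chromosome 6, 53267398 to 53349179, minus strand), the main elongase of polyunsaturated chains, was the most abundant elongase in every group on the TPM scale. The counts were 5533, 5377 and 5052 in CTRL, 5853, 6114 and 5663 in hnCD16, 3393, 3552 and 3377 in FR1, and 3776, 3634 and 3559 in FR2. Both FR groups lay below both other groups without overlap, with log2 fold changes of −0.43 and −0.37 against CTRL and −0.68 and −0.61 against hnCD16. ELOVL7 (chromosome 5, 60751791 to 60844274, minus strand), an elongase of saturated chains, had 13 to 39 counts in every group. Its counts were 25, 22 and 39 in CTRL, 13, 18 and 38 in hnCD16, 33, 15 and 26 in FR1, and 19, 24 and 24 in FR2, so that all groups overlapped and no difference was detectable at this depth.

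Summed over the 5 member elongases, the level was 319 ± 3.03 TPM (SD, n = 3) for CTRL, 322 ± 10.3 for hnCD16, 210 ± 4.83 for FR1 and 214 ± 5.44 for FR2. ELOVL5 made up 61.9% to 66.8% of that sum in every group. ELOVL4 made up 17.4% in CTRL and 16.1% in hnCD16 and 0.00954% or less in FR1 and FR2. ELOVL1 made up 15.7% ± 0.171 of the sum for CTRL, 13.8% ± 0.579 for hnCD16, 37.7% ± 1.73 for FR1 and 35.3% ± 1.66 for FR2.

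HACD1 (chromosome 10, 17589032 to 17617374, minus strand), a 3-hydroxyacyl-CoA dehydratase best known from muscle, had 574, 531 and 504 counts in CTRL, 625, 629 and 592 in hnCD16, 37, 33 and 45 in FR1, and 55, 57 and 64 in FR2. No 2 groups overlapped. Against CTRL the log2 fold change was −3.61 ± 0.11 for FR1 and −3.02 ± 0.10 for FR2, and −3.90 and −3.32 against hnCD16. HACD2 (chromosome 3, 123490820 to 123585053, minus strand), a broadly expressed dehydratase, was lower to a smaller extent. It had 1953, 1828 and 1801 counts in CTRL, 1909, 2086 and 1843 in hnCD16, 1157, 1145 and 1130 in FR1, and 1277, 1140 and 1118 in FR2. The FR libraries were all below the others, with log2 fold changes of −0.51 and −0.49 against CTRL and −0.67 and −0.65 against hnCD16.

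HACD3 (chromosome 15, 65530418 to 65578349, plus strand), also broadly expressed, was the most abundant dehydratase in TPM in every group. The counts were 5251, 4987 and 4604 in CTRL, 5650, 5960 and 5470 in hnCD16, 6474, 6770 and 6499 in FR1, and 6108, 5624 and 5574 in FR2. FR1 lay above CTRL and hnCD16, and FR2 overlapped hnCD16. The log2 fold change was 0.61 and 0.39 against CTRL and 0.31 and 0.09 against hnCD16. The 3 dehydratases together held 235 ± 7.44 TPM for CTRL, 256 ± 10.4 for hnCD16, 230 ± 5.31 for FR1 and 205 ± 11.1 for FR2, of which HACD3 was 65.1%, 66.5%, 87.1% and 84.8%. HACD1 was 15.5% and 15.6% of the sum in CTRL and hnCD16, and 1.08% and 1.63% in FR1 and FR2.

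TECR (chromosome 19, 14517085 to 14565980, plus strand), the trans-2-enoyl-CoA reductase that closes the cycle, had 634, 611 and 584 counts in CTRL, 546, 420 and 468 in hnCD16, 696, 593 and 667 in FR1, and 820, 798 and 774 in FR2. In CPM, FR2 lay above the other 3 groups, and hnCD16 lay below FR1 and overlapped CTRL. The log2 fold change was 0.29 and 0.56 against CTRL and 0.54 and 0.81 against hnCD16. The span of TECR overlaps that of DNAJB1 on the other strand, and since no source used here states that counting used strand, reads of the shared part cannot be told apart. No other member overlapped a gene of the table.

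**Figure D1:**
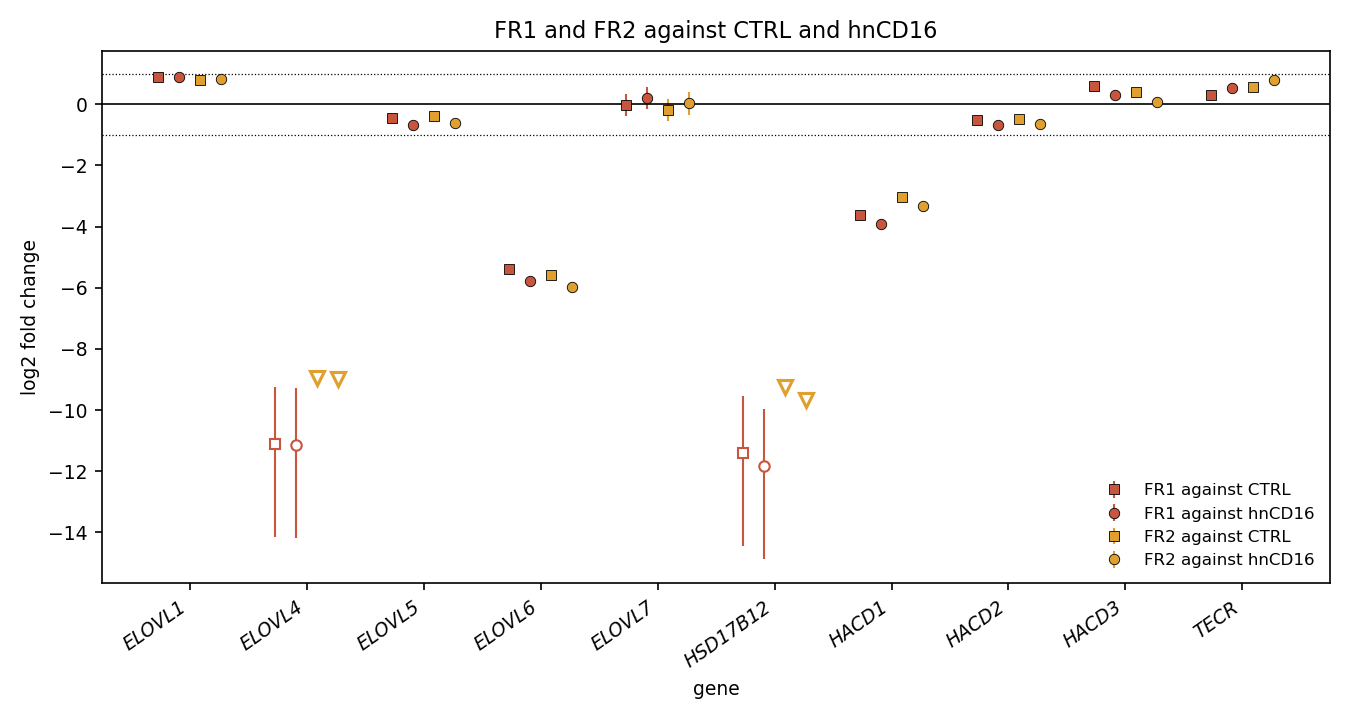
Log2 fold change of each gene in FR1 (red) and FR2 (yellow) against CTRL (squares) and hnCD16 (circles), with bars of 1 SE and dotted lines at the threshold of 1 in each direction. Open squares and circles of ELOVL4 and HSD17B12 are ratios with 95% counting intervals and open triangles are bounds that the true value lies below. ELOVL4, HSD17B12, ELOVL6 and HACD1 lie below the lower line and the other 6 genes between the lines.

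Counted over the cycle, 4 of the 10 genes (ELOVL4, ELOVL6, HSD17B12 and HACD1) met the thresholds of a lower DEG in each of the 4 contrasts between the pairs, and 0 those of a higher one, which is given as a description. Of all tested genes, the share of DEGs was 38% in FR1 against CTRL, 38.2% in FR2 against CTRL, 38.3% in FR1 against hnCD16 and 39.5% in FR2 against hnCD16, of which 19.8%, 19.6%, 19.6% and 19.8% of the tested genes were lower. These contrasts share their groups. The share called in all 4 in one direction was 40% of the members and 31.7% of all tested genes. The 6 libraries of one pair did not overlap with the 6 of the other, in CPM, for 8 of 10 members (ELOVL7 and HACD3 overlapped) and for 64.4% of all tested genes. The median log2 fold change of the members was −0.47 for FR1 and −0.43 for FR2 against CTRL and −0.67 and −0.63 against hnCD16, unchanged with HSD17B12 and ELOVL4 set at their bounds or ratios. The medians over all tested genes were −0.03, −0.04, −0.01 and −0.03. Since the members were chosen on such contrasts, nothing is read from these counts.

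On the TPM scale, the order of the levels differed between the pairs. In CTRL and hnCD16 it began with ELOVL5, HACD3 and HSD17B12, whose ranges did not overlap, and ended with ELOVL6 and ELOVL7. In CTRL, ELOVL4 (55.4 ± 0.947 TPM) and TECR (54.3 ± 0.636) did not differ beyond their spread. In hnCD16, the neighbours from ELOVL4 through HACD2, ELOVL1 and TECR to HACD1 overlapped each in turn. In FR1 and FR2 the order was HACD3, ELOVL5, ELOVL1, TECR, HACD2 and HACD1, followed by ELOVL7 and ELOVL6, and of the first 6, ELOVL1 (75.6 ± 5.14 TPM) and TECR (69.4 TPM) in FR2 overlapped.

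Between hnCD16 and CTRL, whose constructs differ by the receptor without the fused domains, the differences were small. The receptor and any other difference between these cell populations cannot be told apart. By edgeR's quasi-likelihood test, 7 of 10 members had an adjusted p of at most 0.05. HSD17B12 differed the most, higher in hnCD16 by a log2 of 0.43 (95% interval 0.30 to 0.56, adjusted p = 0.000108). ELOVL4, at 0.05 (−0.07 to 0.17, adjusted p = 0.520), did not pass. Of the other 8 members, 6 passed, of which 5 were higher in hnCD16 and 1 was lower. The same 6 had an unadjusted p under 0.05. Over all tested genes, 43% had such an adjusted p. With the fold threshold, 0 of 10 members were DEGs, by edgeR and by DESeq2, against 0.527% of all tested genes (0.212% higher and 0.315% lower in hnCD16). ELOVL6 was higher in hnCD16 by a log2 of 0.37 (95% interval 0.22 to 0.53, adjusted p = 0.000706), HACD3 by 0.30 (0.18 to 0.42, adjusted p = 0.000642), HACD1 by 0.30 (0.14 to 0.45, adjusted p = 0.00325) and ELOVL5 by 0.24 (0.13 to 0.35, adjusted p = 0.00133). TECR was lower, at −0.25 (−0.43 to −0.07, adjusted p = 0.0234), and HACD2 reached 0.16 (0.03 to 0.29, adjusted p = 0.0407). ELOVL1, at −0.02 (−0.16 to 0.12, adjusted p = 0.866), and ELOVL7, at −0.22 (−0.96 to 0.53, adjusted p = 0.670), did not pass.

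Some of these small differences rested on the scale or on single libraries. With limma on log2(TPM + 1), the adjusted p was 0.124 for ELOVL5, 0.0661 for ELOVL6, 0.113 for HACD1 and 0.947 for HACD2, and HACD3 passed under all 15 alternatives. ELOVL1 passed on that scale, at −0.17 (adjusted p = 0.0232). TECR lost its adjusted p without CTRL replicate 1 (0.0714), hnCD16 replicate 2 (0.142) or hnCD16 replicate 3 (0.0688), and HACD2 failed in 8 of 15 alternatives.

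The receptors of FR1 and FR2 differ by the 2B4 domain. That domain and any other difference between these cell populations cannot be told apart, and FCGR3A had 559 to 567 counts against 1012 to 1132. HSD17B12 and ELOVL4 were at the floor in both groups. By edgeR, 3 of the other 8 members had an adjusted p of at most 0.05, against 36.2% of all tested genes. The same 3 had an unadjusted p under 0.05. With the fold threshold, 0 of 10 members were DEGs by edgeR and by DESeq2, against 1.93% of all tested genes (0.439% higher and 1.49% lower in FR1). HACD1 was lower in FR1 than in FR2 by the most, with a log2 fold change of −0.59 (95% interval −0.92 to −0.25, adjusted p = 0.00765), and its 3 FR1 libraries (33 to 45 counts) were all below its 3 FR2 libraries (55 to 64). TECR was lower in FR1 at −0.26 (−0.43 to −0.09, adjusted p = 0.0161), which was lost without FR1 replicate 2 (adjusted p = 0.0923). HACD3 was higher in FR1 at 0.22 (0.09 to 0.34, adjusted p = 0.00748). HACD1 and HACD3 passed under all 15 alternatives. The other intervals included 0, with ELOVL1 at −0.06 to 0.20, ELOVL5 at −0.17 to 0.05, HACD2 at −0.15 to 0.12, ELOVL6 at −0.48 to 0.88 and ELOVL7 at −0.60 to 0.94. With scaling by library size only, ELOVL5 passed at −0.12 (adjusted p = 0.0265).

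**Figure D2:**
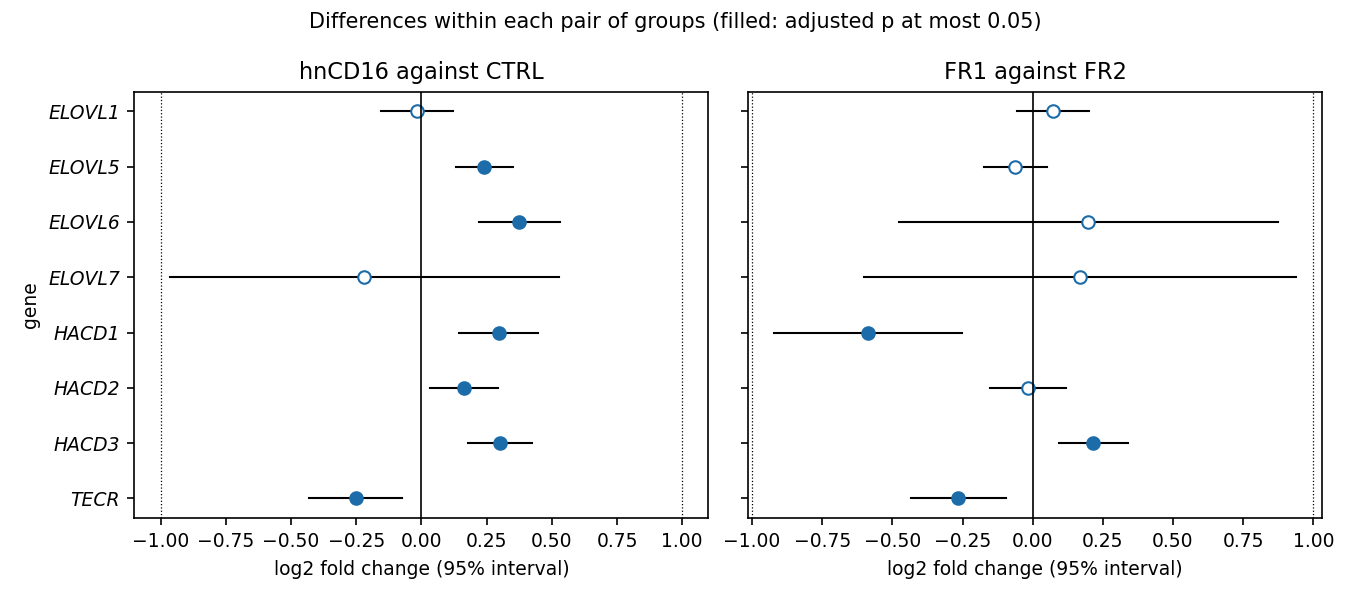
Log2 fold change with its 95% interval in hnCD16 against CTRL (left) and FR1 against FR2 (right). The 8 members other than HSD17B12 and ELOVL4 are shown. Points are filled where the adjusted p of edgeR was at most 0.05, and dotted lines mark the threshold of 1 in each direction. All estimates lie between the dotted lines, 6 points are filled on the left and 3 (HACD1, HACD3 and TECR) on the right.

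For ELOVL1, ELOVL4, ELOVL5, HSD17B12, HACD2, HACD3 and TECR, 1 transcript led in every group with counts above the floor. NM_022726 held 100% of the ELOVL4 counts in CTRL and hnCD16, NM_016142 held 97.7% and 97.4% of those of HSD17B12, and NM_021814 held 95.7% to 96.5% of those of ELOVL5 over the 4 groups. NM_016395 held 99.3% to 100% of the HACD3 counts, NM_022821 90.4% to 95.1% of those of ELOVL1 and NM_138501 79.3% to 89.7% of those of TECR. The HACD1 counts were divided between NM_014241 and XM_005252641. NM_014241 held 45.0%, 39.0% and 46.7% in CTRL, 47.1%, 48.6% and 42.2% in hnCD16, 50.0%, 33.7% and 60.5% in FR1, and 61.0%, 59.0% and 78.4% in FR2. The FR2 values lay above those of CTRL and hnCD16 and overlapped FR1, at 33 to 64 counts per library in FR1 and FR2. For HACD2, NM_198402 held 54.2% for CTRL, 49.5% for hnCD16, 44.6% for FR1 and 42.0% for FR2. Of the ELOVL6 counts, NM_024090 held 48.2% in CTRL and 41.7% in hnCD16, and 6.39% and 0% in FR1 and FR2, where at most 15 counts were left per library. For ELOVL6, XM_011532233 held 5.38% in CTRL and 18.7% in hnCD16, and the libraries of these groups did not overlap. NM_001130721 held 37.9% and 37.3% of the ELOVL6 counts in CTRL and hnCD16. The shares of ELOVL7, which had few counts, varied between libraries and are not given. RSEM divides reads between transcripts by estimation, so these shares are estimates.

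Around the cycle, 68 related genes of fatty acid supply, desaturation, ceramide synthesis, activation, peroxisomal breakdown and regulation were listed, and 58 were tested. Of these, 27, 26, 29 and 27 were DEGs in FR1 against CTRL, FR2 against CTRL, FR1 against hnCD16 and FR2 against hnCD16. The shares over all tested genes were 38%, 38.2%, 38.3% and 39.5%. Across all 4, 13 were higher and 11 lower, which is 41.4% of the tested related genes against 31.7% of all tested genes. Of the 13657 tested genes, 2090 were higher and 2242 lower in all 4. The median log2 fold change of the related genes lay between −0.02 and 0.11 in these 4 contrasts. Between hnCD16 and CTRL and within the FR pair, 1 related gene was a DEG in each comparison. The lists were chosen with earlier results of these data known, and the genes named below include the 3 largest changes per list. Their adjusted p-values (edgeR) in the contrasts between the pairs therefore describe selected genes and are not a test of the lists.

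The other family members were lower in FR1 and FR2 or near the floor throughout. HACD4, a dehydratase of immune and other cells, had 468 to 534 counts in CTRL and hnCD16 and 18 to 42 in FR1 and FR2, and fell with log2 fold changes of −4.06 ± 0.14 and −4.35 ± 0.14 (FR1 and FR2 against hnCD16) (adjusted p = 1.16e-14 and 6.56e-15). ELOVL3, an elongase known from skin and brown fat, fell from 32 to 48 counts to 9 to 16 (log2 fold change of −1.63 and −1.58 against hnCD16, adjusted p = 2.05e-05 and 2.52e-05). ELOVL2 had 0 to 7 counts and TECRL 2 to 8, and neither was tested. With these genes added, the dehydratase sum was 245 ± 7.51, 266 ± 10.7, 231 ± 5.52 and 206 ± 11.2 TPM in the 4 groups.

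Of the 6 genes that set the supply of palmitate and malonyl-CoA, 4 were lower in all 4 contrasts and 0 were higher. That is 66.7% of them, against 31.7% of all tested genes called in all 4 in one direction. MLYCD, which degrades malonyl-CoA, had 91 to 120 counts in CTRL and hnCD16, 1 count in all in FR1 and 0 in FR2. ACACB, the acetyl-CoA carboxylase of the mitochondrial surface, fell with log2 fold changes of −2.91 ± 0.39 and −3.31 ± 0.42 against hnCD16 (adjusted p = 2.47e-06 and 9.44e-07). ACSS2, which makes acetyl-CoA from acetate, fell as well, at −2.82 ± 0.25 and −2.01 ± 0.22 (adjusted p = 9.88e-09 and 1.74e-07). Of the lower genes, MLYCD consumes malonyl-CoA while the carboxylases make it.

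Of the 7 genes listed for desaturation, CYB5A and CYB5R3 among them, 2 were higher and 1 lower in all 4 contrasts. That is 42.9% against 31.7% of all tested genes. SCD, the stearoyl-CoA desaturase, had 289 to 477 counts in CTRL and hnCD16 and 2151 to 2766 in FR1 and FR2 (log2 fold change of 3.27 and 2.99 against hnCD16, adjusted p = 6.89e-19 and 2.20e-18). CYB5A, the cytochrome b5 that passes electrons to desaturases, rose by 2.40 and 2.46 (adjusted p = 3.05e-13 and 1.85e-13). FADS3, which desaturates sphingoid bases, had 248 to 334 counts in the first pair and 0 in every FR1 and FR2 library, at least 78.5-fold and 80.0-fold lower than in hnCD16.

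In ceramide synthesis, 3 of 10 tested genes were higher in all 4 contrasts and 0 were lower. That share of 30% was near the 31.7% of all tested genes called in all 4 in one direction. CERS2, the synthase that prefers very long acyl-CoAs, had 2401 to 2947 counts in CTRL and hnCD16 and 7718 to 8865 in FR1 and FR2 (log2 fold change of 1.91 ± 0.05 and 1.75 ± 0.05 against hnCD16, adjusted p = 7.16e-16 and 2.26e-15). CERS6, which prefers palmitoyl-CoA, had 0 to 3 counts in CTRL and hnCD16 and 3474 to 3601 in FR1 and FR2, a ratio of 3752 in FR1 (95% counting interval 1284 to 18193) and 3711 in FR2 (1270 to 17995) against hnCD16. DEGS1, which turns dihydroceramide into ceramide, rose by 1.16 and 1.10 against hnCD16 (adjusted p = 7.84e-11 and 1.54e-10). CERS5 (872 to 952 counts) and CERS4 (63 to 105 counts) were not DEGs in any contrast, and CERS1 and CERS3 had 6 counts or fewer throughout.

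Of 12 peroxisomal genes of very long chain fatty acid breakdown, 3 were higher and 1 lower in all 4 contrasts. That share of 33.3% was near the 31.7% of all tested genes. HSD17B4, the bifunctional enzyme of peroxisomal beta-oxidation, fell from 999 to 1189 counts to 1 to 5, with a ratio of 268 in FR1 and of 655 in FR2 (95% counting interval 281 to 2018) against hnCD16. ABCD2, which imports very long chain acyl-CoAs, rose by a log2 of 6.23 ± 0.08 and 6.33 ± 0.08 against hnCD16 (adjusted p = 4.83e-20 and 3.32e-20).

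Of 11 tested acyl-CoA synthetases, 4 were higher and 1 lower in all 4 contrasts, which is 45.5% against 31.7% of all tested genes. SLC27A2, a very long chain acyl-CoA synthetase, had 0 to 4 counts in CTRL and hnCD16 and 4409 to 4548 in FR1 and FR2, a ratio of 2065 in FR1 (95% counting interval 1002 to 5136) against hnCD16. ACSL1, which activates long chains, had 0 to 6 counts in the first pair and 1486 to 1562 in the second. SLC27A3 rose by 5.33 and 5.83 against hnCD16 (adjusted p = 1.87e-15 and 2.31e-16). SLC27A1, a fatty acid transport protein, was the one related DEG between FR1 and FR2, with 94, 73 and 93 counts in FR1 and 224, 208 and 206 in FR2 (log2 fold change −1.27 ± 0.11, adjusted p = 2.30e-07). Without FR2 replicate 2, ACSS2 was a second such gene.

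Of 10 tested regulators, 1 was higher and 2 were lower in all 4 contrasts. That share of 30% was near the 31.7% of all tested genes. SREBF1, the transcription factor of fatty acid synthesis, was the higher one. NR1H3 and PPARA, a liver X receptor and a fatty acid receptor, were lower. SREBF1 had 256 to 389 counts in CTRL and hnCD16 and 804 to 1442 in FR1 and FR2 (log2 fold change of 1.94 and 2.47 against hnCD16, adjusted p = 1.67e-12 and 3.65e-14). PPARA fell, at −1.77 and −1.48 (adjusted p = 5.07e-11 and 3.57e-10) and so did NR1H3, at −1.23 and −1.83 (adjusted p = 9.01e-06 and 1.64e-07).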

How the data were processed

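RNA-seq of 12 libraries (4 groups of 3, by the sample titles) was analysed. The authors used SOAPnuke for trimming, HISAT2 2.1.0 for mapping (GRCh38.p13) and RSEM 1.3.1 for quantification, per the study's methods and the submitters' processing notes. The deposited expected counts are estimated counts without normalization, and the deposited TPM values come from the same reads. A further 40 value columns per table (FPKM, normalized counts, averages) were not used. Expected counts were rounded and tested with edgeR 4.0.16 in R 4.3.3 (quasi-likelihood, TMM, filterByExpr, 1 fit of 4 groups), with Benjamini-Hochberg adjustment over 13657 genes separately for 6 comparisons. A gene was called a DEG when its log2 fold change reached 1 in either direction with an adjusted p no higher than 0.05, the study's thresholds. TPM compared genes, and CPM compared libraries.

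The members and gene lists were chosen with earlier results of these data known. Named were all members, ELOVL2, ELOVL3, HACD4, TECRL and CERS1 to CERS6. From each related list, the 3 largest changes in FR1 against hnCD16 were named. They were taken among genes called in FR1 and in FR2 against hnCD16 with a mean of at least 1 CPM. Related DEGs within a pair were named too. So were the 3 nearest genes on each side of HSD17B12 and ELOVL4, and their 3 most alike genes. Transcripts were named from among those with at least 10% of a member's counts, and not all of those were named. On counts simulated with log2 changes of 2 and 1 common dispersion (0.00312), 199 of 199 changed genes that passed the filter were called for FR1 against hnCD16. Smaller changes and dispersions that differ by gene were not simulated. Alternatives were DESeq2 1.42.0, limma 3.58.1 on TPM, other scalings and filters, the 2 groups alone, a replicate block, no fold threshold and leaving out each library. The values of 1 related gene are not reported here.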

Additional observations from a re-analysis of the deposited data

How the results depend on the processing

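The number of members called, 4 in each of the 4 contrasts between the pairs and 0 within them, was the same under every alternative run except without the fold threshold, where it was 7 in hnCD16 against CTRL, 9 in FR1 against CTRL, 9 in FR2 against CTRL, 9 in FR1 against hnCD16, 8 in FR2 against hnCD16 and 3 in FR1 against FR2. The related genes called were then 28, 52, 47, 49, 46 and 22. The 1 related gene called in hnCD16 against CTRL became 0 with limma on log2(TPM + 1), and ranged from 0 (without hnCD16 replicate 3) to 1 on leaving out a library. In FR1 against FR2 the 1 related gene became 2 by library size only, and ranged from 1 to 2 (2 without FR1 replicate 1 or FR2 replicate 2). Small log2 fold changes of members turned sign on leaving out a library, none past the threshold in either case. In hnCD16 against CTRL, ELOVL1 ranged from −0.075 to 0.015 (above 0 without CTRL replicate 1) and ELOVL7 from −0.77 to 0.056 (0.044 without CTRL replicate 3 and 0.056 without hnCD16 replicate 1). In FR1 against FR2, ELOVL7 ranged from −0.13 (without FR1 replicate 1) to 0.42, ELOVL6 from −0.024 (without FR1 replicate 2) to 0.48 and HACD2 from −0.055 to 0.012 (without FR2 replicate 1). ELOVL7 also turned sign in the 4 contrasts between the pairs. Against CTRL it ranged from −0.31 to 0.25 in FR1 and from −0.34 to 0.11 in FR2. Against hnCD16 the ELOVL7 range was −0.076 to 0.75 in FR1 and −0.24 to 0.58 in FR2. Scaling by library size only shifted the median log2 fold change of all genes to −0.12, −0.22 and −0.17 in hnCD16, FR1 and FR2 against CTRL. With that scaling, ELOVL4 in hnCD16 against CTRL turned from 0.051 to −0.062. Over all genes, 72 were called in hnCD16 against CTRL by edgeR and 32 by DESeq2, and the causes were not tested.

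With the replicate number as a block, 4 members were still called in the 4 contrasts between the pairs and 0 within them, and 75 genes were called in hnCD16 against CTRL and 275 in FR1 against FR2, against 72 and 264 without it. The correlation of the deviations of same-numbered libraries was not over 0.1 for all 3 numbers in any of the 6 comparisons. It was 0.338, 0.0196 and 0.404 in hnCD16 against CTRL, the highest mean of the 6. At most 4 of 6 libraries correlated best with their own number (hnCD16 against CTRL and FR2 against hnCD16), and 0 did in FR1 against FR2. Whether same-numbered libraries were processed together was not tested. Counts of 3 or fewer limit the folds of HSD17B12 and ELOVL4 to bounds or wide ratios, and 13 to 39 counts limit ELOVL7.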

Other observations

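Other genes of the HSD17B family were looked up after the values of HSD17B12 were seen, so their adjusted p-values are given as a description. HSD17B10, a mitochondrial dehydrogenase, was level, with 1678 to 2053 counts in all 12 libraries and log2 fold changes of 0.11 in FR1 and −0.08 in FR2 against hnCD16 (adjusted p of edgeR 0.136 and 0.252). HSD17B11, of lipid droplets, fell from 590 to 722 counts in CTRL and hnCD16 to 130 to 185 in FR1 and FR2 (log2 fold change of −2.29 and −1.94 against hnCD16, adjusted p = 1.23e-15 and 7.02e-15). HSD17B14 rose from 6 to 14 counts to 187 to 266 (4.47 and 4.83, adjusted p = 1.73e-13 and 2.81e-14). HSD17B8, a subunit of the mitochondrial 3-ketoacyl reductase, had log2 fold changes of −1.34 and −0.73 (adjusted p = 9.79e-08 and 5.13e-05), and HSD17B3 had 3 counts or fewer in every library. HSD17B6 rose by 1.09 and 1.32 against hnCD16 (adjusted p = 9.44e-07 and 5.16e-08). HSD17B7 was lower by less than the fold threshold, at −0.69 and −0.42 (adjusted p = 8.24e-09 and 3.84e-06). HSD17B1, at 0.15 and 0.29 (adjusted p = 0.404 and 0.108), and HSD17B13, at −0.15 and 0.13 (adjusted p = 0.602 and 0.626), did not pass.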
